A study of Mus musculus with 45 samples.

Results

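The subunits of the mitochondrial respiratory chain and of ATP synthase were followed in primary mouse embryonic fibroblasts, connective-tissue cells cultured from embryos. Members were all rows of the count table whose symbol names a subunit of NADH dehydrogenase (Nduf families a, b, c, s and v), succinate dehydrogenase (Sdha to Sdhd), the cytochrome bc1 complex (Uqcr), cytochrome c oxidase (Cox4 to Cox8) or ATP synthase (Atp5), or a mitochondrially encoded protein subunit (mt-Nd, mt-Co, mt-Atp, mt-Cytb), with rows that the table names -ps left out. This rule found 104 members among 57010 rows, 91 encoded in the nucleus and 13 on mitochondrial DNA. By name, 49 belonged to complex I, 4 to complex II, 9 to complex III, 22 to complex IV and 20 to complex V. The rule did not take in Ndufab1 and Cyc1, which also encode subunits, and it put Ndufa4 with complex I, although its product is known as a subunit of complex IV.

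All cells were of wild-type genotype. They had been made senescent with 200 µM hydrogen peroxide (H2O2) for 24 h, made senescent with etoposide (2 µM, a topoisomerase II poison that breaks DNA) for 24 h, each followed by 5 days in normal medium, or were proliferating cells given no inducer. Each state received α-ESA (α-eleostearic acid, a conjugated fatty acid, here ESA), its derivative α-ESA-me (here ESA-Me), each compound after 1 h with 2 µM ferrostatin-1 (Fer-1, which blocks ferroptosis), or ethanol vehicle, for 12 h, which made 15 groups of 3 libraries. The sample labels give 2 µg/mL for both compounds, whereas by the protocol text ESA was used at 10 and ESA-Me at 20 µg/mL. The doses of the compounds may therefore differ, and their values are set side by side without a comparison between them. No group received Fer-1 alone.

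Electrons from NADH and succinate enter the chain at complexes I and II and pass through complexes III and IV to oxygen. Complexes I, III and IV pump protons across the inner mitochondrial membrane, and complex V, the ATP synthase, lets them return to make ATP. Complex II is encoded wholly in the nucleus, while the other complexes join nuclear subunits with a few that are transcribed inside the organelle from its own DNA, so that the complexes depend on the output of both genomes. A few subunits exist as pairs of isoforms that are used in different tissues or at low oxygen, among them Cox4i1 and Cox4i2, and Ndufa4 and its paralogue Ndufa4l2.

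Libraries held 13.5 to 59.6 megareads assigned to genes. Levels are CPM, the counts of a gene per megaread, computed with TMM scaling, which corrects for differences in RNA composition, and errors of levels are SD over n = 3 libraries. Differences are log2 fold changes with standard errors from edgeR's quasi-likelihood test over 16194 genes, and a gene is said to have risen, fallen or been called where its Benjamini-Hochberg adjusted p was under 0.05. The test took in 98 members, 85 nuclear and 13 mitochondrial. The 6 members whose counts were too low were Cox8b, Cox8c, Cox7b2, Ndufb11b, Ndufa11b and a second identifier of Atp5o (ENSMUSG00000116933). Several fibroblast markers were abundant in the libraries: Col1a1 averaged 5610 CPM, Vim 4800 CPM, Thy1 505 CPM and Pdgfrb 440 CPM. Dcn and Pdgfra were lower at 19.7 and 3.15 CPM. Markers of other cell types ranged widely. The endothelial marker Pecam1, the epithelial marker Epcam and the brown fat marker Ucp1 averaged 0.104, 0.018 and 0.008 CPM. The macrophage marker Lyz2 averaged 84.7 CPM, the neural marker Tubb3 75 and the muscle marker Acta1 52.2 CPM. The epithelial marker Krt19 averaged 11.7 CPM and the adipocyte marker Fabp4 7.2 CPM.

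Within a state, libraries with the same replicate number deviated together from their group means, with correlations across genes of 0.27 to 0.82 over 12 comparisons. No pair with different numbers exceeded 0.06. Deviations from a group mean cancel out within the group, so high values for equal numbers force low ones for different numbers. The low values are therefore not separate support for pairing. Where the pairing changes a call within a state, the test with the replicate number as a block nested in state is given beside the first one. Numbers did not pair the induced with the uninduced libraries.

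The 13 mitochondrial members together took more counts than the 91 nuclear ones, in sums that are not corrected for length. In vehicle-treated cells their summed level was 14330 ± 1048 CPM after H2O2, 12530 ± 2991 CPM after etoposide and 13010 ± 715 CPM in uninduced cells, against 7497 ± 149, 7835 ± 1304 and 6981 ± 349 CPM for the nuclear members of the same groups. Library 1 of the etoposide vehicle group stood apart with 9111 CPM for the mitochondrial and 9339 CPM for the nuclear members, and library 2 of uninduced cells with ESA had 9504 and 8305 CPM. At the other end, the 4 etoposide libraries numbered 2 that had received a compound reached 17650 to 21090 CPM of mitochondrial members. The nuclear sums were 7668, 7431 and 7392 CPM in the H2O2 libraries, against 6720, 7378 and 6846 CPM in uninduced cells, a narrow gap without overlap. The mitochondrial sums of these groups were 13600, 15530 and 13860 CPM against 13810, 12420 and 12820 CPM and overlapped.

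**Figure D1:**
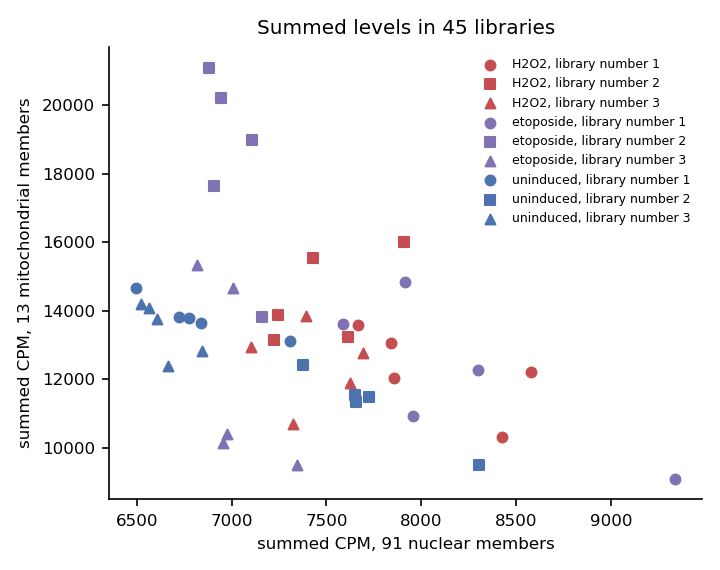
Summed level of the 13 mitochondrial members (vertical axis, CPM) against that of the 91 nuclear members (horizontal axis, CPM) in each of the 45 libraries, coloured by state and with a symbol for the replicate number. The 4 etoposide libraries numbered 2 that received a compound lie highest on the mitochondrial axis, up to 21090 CPM, and the etoposide vehicle library 1 lies lowest, at 9111 CPM.

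Among the mitochondrial members levels spanned several orders of magnitude, and those with a near-identical copy in the nuclear genome were among the low ones. Per kilobase of transcript, the cytochrome c oxidase catalytic subunit mt-Co1 averaged 3148 CPM per kb, mt-Cytb of complex III 2600, mt-Nd1 1788, mt-Nd2 1075, mt-Nd5 857 and mt-Nd4 740 over the 45 libraries. The 5 members whose transcript lies almost wholly (at least 99%) in a nuclear copy of at least 98% identity were far lower: mt-Co2 averaged 51.3 CPM per kb, mt-Co3 35.8, mt-Atp6 30.4, mt-Nd4l 14.2 and mt-Nd3 6.95. All 5 copies lie in 1 cluster of unprocessed pseudogenes on chromosome 1, together with partial copies of mt-Nd4 (63.6% of its transcript), mt-Co1 (31.3%) and mt-Atp8 (21.1%). Each of the 5 full copies received at least as many counts per library, on average, as its member: mt-Nd3 had 58.8 and its copy Gm28438 59.3, mt-Nd4l 104.5 and Gm10222 112.6, mt-Co2 885 and Gm28661 1010, mt-Co3 688.5 and Gm28437 847.9. The gap was widest for mt-Atp6, with 507.6 counts against 945.7 in Gm10925, which also holds part of mt-Atp8. How the counting treated reads that fit more than 1 place is not given in the sources used here, so the levels of these 5 members are uncertain. The stretches below, from GENCODE M21 on GRCm38, show how little there is to tell them apart: the transcript of mt-Nd3 (chrM:9459-9491, plus strand) and its copy Gm28438 (chr1:24613087-24613119, minus strand) differ at 1 position in 345 bases, T3C counted from the 5′ end of mt-Nd3, which is in capitals, and mt-Co2 (chrM:7323-7383, plus strand) and Gm28661 (chr1:24615195-24615255, minus strand) at none in 681 bases.
mt-Nd3: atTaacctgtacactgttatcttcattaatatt
Gm28438: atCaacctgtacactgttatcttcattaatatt
mt-Co2: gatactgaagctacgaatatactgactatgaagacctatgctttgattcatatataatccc
Gm28661: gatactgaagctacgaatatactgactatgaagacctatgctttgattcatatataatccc

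The other low members were mt-Nd6, with no part of its transcript in a copy, and mt-Atp8, with 21.1% in one. The level of mt-Nd6, the only protein gene on the light strand of mitochondrial DNA, averaged 5.80 CPM per kb, and mt-Atp8, which overlaps mt-Atp6, averaged 6.001 CPM per kb.

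**Figure D2:**
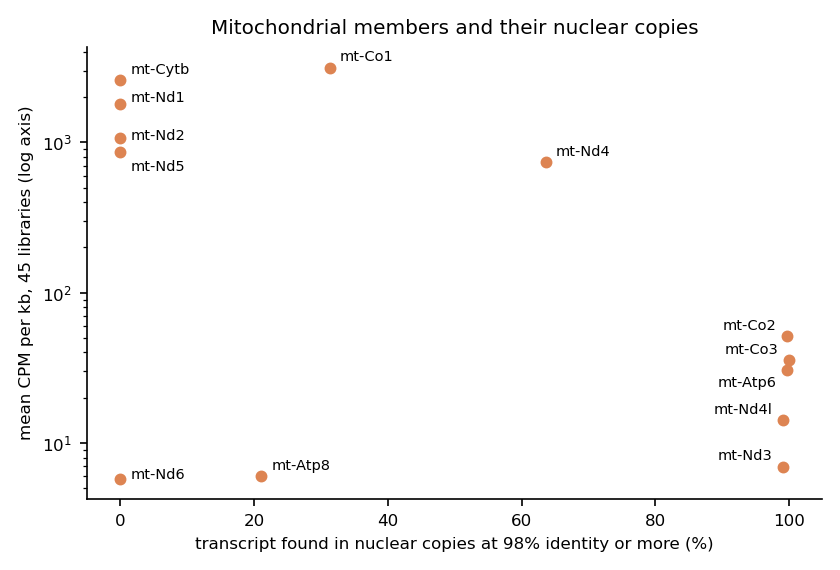
Mean level of each mitochondrial member over 45 libraries (CPM per kb, log axis) against the percentage of its transcript found in nuclear copies at 98% identity or more. The 5 members at 99% or more lie between 6.95 and 51.3 CPM per kb, below mt-Nd4 and mt-Co1, which are copied in part.

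Among the nuclear members the complex IV subunit gene Cox6b1 had the highest level per kilobase of exon, at 246.4 CPM per kb on average over 45 libraries, followed by Atp5b, the catalytic subunit of ATP synthase, at 233.6 and the complex IV gene Cox6a1 at 216.5 CPM per kb. Ubiquitous isoforms of complex IV far exceeded the tissue-restricted ones per kilobase: Cox4i1 averaged 154 CPM per kb and Cox4i2 2.15, Cox6a1 216.5 and the muscle isoform Cox6a2 0.623, Cox6b1 246.4 and the testis isoform Cox6b2 3.08, Cox7a2 94.1 and the muscle isoform Cox7a1 0.532. The muscle isoform Cox8b had no count in any library, and Cox7b2 and Cox8c averaged 0.00555 and 0.00244 CPM. In all, 9 members averaged under 1 CPM: Cox7a1 (0.285 CPM), Cox6a2 (0.424 CPM), the processed pseudogene Ndufb4c (0.470 CPM) and the 6 that were not tested.

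The first question was what senescence had changed. In vehicle-treated cells, 9 of the 98 members rose after H2O2 and 2 fell, while 8.92% of all genes tested rose and 8.58% fell. After etoposide 19 rose and 2 fell, beside 9.2% and 8.54% of all genes. These comparisons share their uninduced libraries. Their induced libraries were not independent either, as deviations correlated at 0.62 to 0.76 between H2O2 and etoposide vehicle libraries of equal number. Against uninduced libraries the correlation was -0.22 to 0.05 for H2O2 and -0.2 to 0.04 for etoposide. Agreement between the inducers is therefore not an independent replication. Any difference in preparation or time in culture between induced and uninduced cells would coincide with state and cannot be told apart from it in this design. The changes that were called were small for members that rose, at most 0.75 on the log2 scale, and large for the isoforms Cox4i2 and Ndufa4l2, which fell by more than 2. The median log2 fold change of the members was 0.15 after H2O2 and 0.18 after etoposide, with 0.029 and 0.033 over all genes tested. Library by library, 41 members (41.8%) lay above every uninduced library in all 3 H2O2 libraries, compared with 21.3% of all genes, and 7 lay below, compared with 20.7%. After etoposide 35 (35.7%) lay above and 3 below, compared with 17.6% and 17% of all genes. In these bulk libraries a change in RNA per cell and a change in the share of cells that express a gene cannot be told apart.

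**Figure D3:**
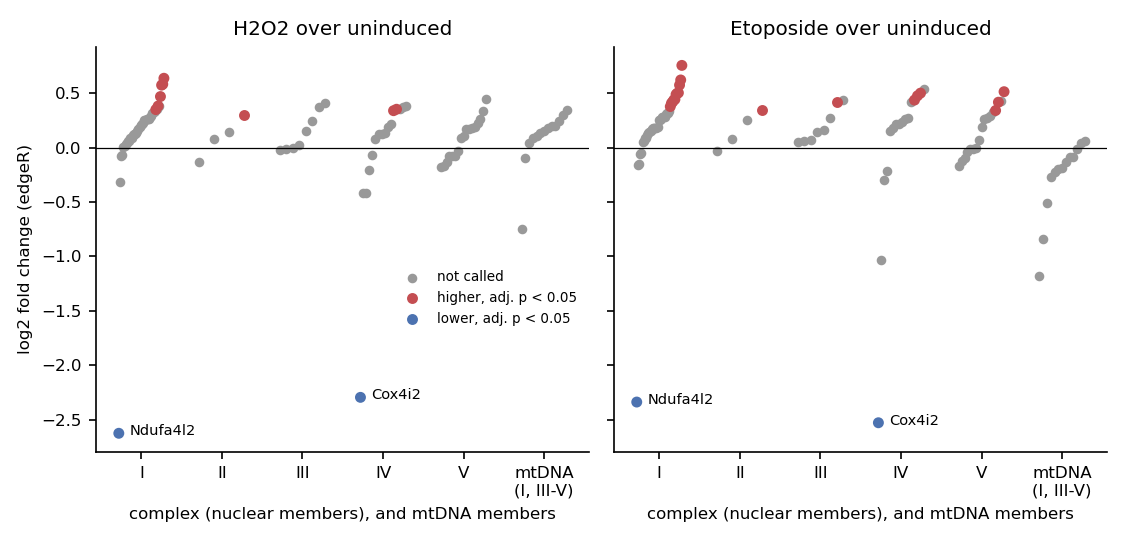
Log2 fold change over uninduced cells in vehicle-treated cells (edgeR) after H2O2 (left) and etoposide (right), 1 point per tested member, with nuclear members by complex and mitochondrial members apart. Called members are red where higher and blue where lower; the 2 blue points, Cox4i2 and Ndufa4l2, lie under -2 and no mitochondrial member is coloured.

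Complex I, the largest group with 40 of the 85 tested nuclear members, held most of the members that rose. Of these 40, 6 rose after H2O2 and 11 after etoposide, with median log2 fold changes of 0.21 and 0.25. The 11 include Ndufa4, whose product is known as a subunit of complex IV, and the Ndufb1 row, which GENCODE M21 types as non-coding. The counts by complex stand beside 8.92% of all genes that rose after H2O2 and 9.2% after etoposide. Of complex II 1 of 4 rose in each comparison (Sdhc, a membrane anchor), of complex III 0 and 1 of 8, of complex IV 2 and 3 of 16 and of complex V 0 and 3 of 17. Ndufb4, an accessory subunit in the membrane arm of complex I (ENSMUSG00000022820, chr16:37647170-37654453 on GRCm38), had 34.4, 36.3 and 34.6 CPM in the H2O2 libraries and 48.9, 34.2 and 36.4 CPM in the etoposide libraries, against 25.8, 23.0 and 22.01 CPM in uninduced cells. Every induced library was above every uninduced one. It rose by 0.57 ± 0.13 after H2O2 (adjusted p = 0.00197) and by 0.75 ± 0.13 after etoposide (edgeR, adjusted p = 9.45e-05). Of its transcript, 40.2% is shared with the pseudogene Ndufb4c, which had at most 0.623 CPM in these 9 libraries.

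Ndufa13, an accessory complex I subunit also known as GRIM-19 (ENSMUSG00000036199, chr8:69894180-69902558), had 99.5, 115.4 and 123.8 CPM after H2O2 and 117.6, 107.1 and 99.7 CPM after etoposide, against 72.5, 71.95 and 73.4 CPM in uninduced cells. The uninduced libraries lay close together and below all induced ones. The log2 fold changes were 0.64 ± 0.14 (edgeR, adjusted p = 0.00131) and 0.57 ± 0.14 (adjusted p = 0.00359). Yjefn3 overlaps the gene on the same strand and Tssk6 on the opposite one, and whether the counting used strand is not given. In the fit without the block, Ndufb4 and Ndufa13 stayed called in both comparisons whichever of the compared libraries was left out.

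Several other risen members depended on single libraries. Ndufa11, an accessory complex I subunit, had 57.9, 58.4 and 61.5 CPM after H2O2 and 73.9, 50.4 and 44.3 CPM after etoposide, against 39.9, 39.7 and 39.2 CPM in uninduced cells. The H2O2 libraries lay close together, and etoposide library 1 was far above the other two. Its log2 fold changes were 0.58 ± 0.18 (edgeR, adjusted p = 0.0202) and 0.50 ± 0.18 (adjusted p = 0.0464). Without etoposide library 1 the etoposide value was 0.26 (edgeR, adjusted p = 0.373), and without H2O2 library 3 or any 1 uninduced library the H2O2 call was lost too (adjusted p = 0.053 to 0.064). Atp5l, subunit g of ATP synthase, had 132.7, 104.5 and 95.2 CPM after etoposide, against 71.0, 82.0 and 79.9 CPM in uninduced cells, a rise of 0.51 ± 0.17 that was 0.36 without etoposide library 1 (edgeR, adjusted p = 0.0352 and 0.2). Cox8a of complex IV rose by 0.50 ± 0.16 after etoposide (adjusted p = 0.0252) and Ndufb1 by 0.62 ± 0.19 (adjusted p = 0.017). GENCODE M21 names the Ndufb1 row (ENSMUSG00000113902) Ndufb1-ps and types it as a non-coding RNA from a bidirectional promoter, so that its place among the subunits is uncertain. Without etoposide library 1, Cox8a and Ndufb1 were at 0.39 and 0.55 (edgeR, adjusted p = 0.136 and 0.0708). The number of members called after etoposide was 8 without that library and 22 without library 2.

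After H2O2, Ndufa7, Ndufa3 and Cox6b1, the last a complex IV subunit on the intermembrane side, rose by 0.47 ± 0.16, 0.38 ± 0.10 and 0.35 ± 0.12 (edgeR, adjusted p = 0.037, 0.00912 and 0.0427). For Cox6b1 the libraries had 184.8, 176.4 and 184.1 CPM after H2O2, against 135.3, 150.4 and 141.6 CPM in uninduced cells, with no overlap. Cox6b1 and Ndufa7 missed the threshold whichever 1 of the 6 libraries was left out (adjusted p = 0.0719 to 0.143 and 0.066 to 0.111), and Ndufa3 without H2O2 library 3 or uninduced library 3 (edgeR, adjusted p = 0.091 and 0.0642). Leaving out 1 library left 4 to 9 members called after H2O2, fewest without uninduced library 3. The remaining called members, given here for completeness and outside the rule by which members were named, were Ndufs4, Sdhc and Cox6c after H2O2. After etoposide they were Ndufa3, Ndufa4, Ndufa6, Ndufa7, Ndufb3, Ndufb10, Ndufs4, Sdhc, Uqcrh, Cox6b1, Cox6c, Atp5h and Atp5k, each higher by 0.34 to 0.50.

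None of the 7 core subunits of complex I encoded in the nucleus, which carry its electron path, was called, nor was any of the 5 subunits of the F1 part of ATP synthase, a grouping made after the values were seen. Among all genes 8.92% rose after H2O2 and 9.2% after etoposide, and 0 calls among so few genes cannot be told from these shares. The core subunits had a median log2 fold change of 0.12 after H2O2 and 0.09 after etoposide, the other tested nuclear complex I members one of 0.26 and 0.28. Those other members include Ndufa4, the Ndufb1 row and the processed pseudogenes Ndufb4c and Ndufs6b. Ndufs1, the largest core subunit, had 85.2, 81.0 and 83.0 CPM after H2O2 and 79.7, 83.7 and 91.5 CPM after etoposide, against 86.2, 90.2 and 87.0 CPM in uninduced cells. Its log2 fold changes were -0.08 ± 0.07 and -0.05 ± 0.07 (edgeR, adjusted p = 0.499 and 0.714). Ndufv1, the NADH-binding subunit, was at 0.14 ± 0.17 in either comparison.

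Of the other complexes a fixed set of 8 nuclear-encoded subunits was named by rule, and none was called. These are again too few genes to tell from the share of all genes. Sdha, the flavoprotein of complex II, had 174.6, 178.2 and 161.4 CPM after H2O2 and 189.1, 168.5 and 158.3 CPM after etoposide, against 163.2, 165.8 and 158.6 CPM in uninduced cells, and the groups overlapped. Its log2 fold change was 0.08 ± 0.08 in each comparison, that of Sdhb 0.14 ± 0.16 and 0.25 ± 0.16, that of the complex III core protein Uqcrc1 0.02 ± 0.24 and 0.06 ± 0.24, and that of the Rieske protein Uqcrfs1 -0.02 ± 0.15 and 0.05 ± 0.15. Cox4i1 was at 0.21 ± 0.15 and 0.26 ± 0.15, Cox5a at 0.08 ± 0.15 and 0.27 ± 0.15, Atp5a1 at -0.17 ± 0.11 and -0.13 ± 0.11 and Atp5b at -0.08 ± 0.16 and -0.003 ± 0.163. Each of these 8 genes was highest in etoposide library 1 among the etoposide libraries: Uqcrc1 had 187.0, 108.1 and 96.3 CPM after etoposide, against 118.9, 135.6 and 121.3 CPM in uninduced cells.

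Promoters of nuclear members were read for the letters of 5 motifs, first those of NRF1 and the ETS factor GABPA, which are known to bind genes of the respiratory chain. Windows of 300 bases around the start were matched in RefSeq (GRCm38.p6) for 69 of the 86 nuclear members that are not processed pseudogenes, counting a symbol once. On either strand, 17 of the 69 (24.6%) held the NRF1-type letters, GCGCA, any 1 base and GCGC, beside 5.19% of all 27025 genes with a window, and 17 (24.6%) held the ETS-type letters CCGGAAG, beside 9.93%. Of the 17 matched members that rose in either comparison, 5 held the first and 6 the second. The YY1-type AAGATGG was in 11 (15.9%, beside 7.28% of all genes), the ERR-type AAGGTCA in 8 (11.6%, beside 5.38%) and the hypoxia-response letters ACGTG in 18 (26.1%, beside 21.8%). These matches describe the windows and say nothing of binding. The 250 bases before the start are shown for 3 members that rose and hold the NRF1-type letters, which are in capitals: Ndufb4 (chr16:37654369-37654618, minus strand) with 3 matches, the nearest ending 12 bases before the start, Ndufa11 (chr17:56717512-56717761, plus strand) with 1 match and Atp5k (chr5:108434400-108434649, minus strand) with 1.
Ndufb4: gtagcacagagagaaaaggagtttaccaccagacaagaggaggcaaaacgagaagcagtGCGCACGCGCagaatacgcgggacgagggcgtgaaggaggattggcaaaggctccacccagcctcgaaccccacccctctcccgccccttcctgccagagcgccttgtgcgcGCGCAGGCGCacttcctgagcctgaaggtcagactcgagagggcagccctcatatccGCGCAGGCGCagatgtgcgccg
Ndufa11: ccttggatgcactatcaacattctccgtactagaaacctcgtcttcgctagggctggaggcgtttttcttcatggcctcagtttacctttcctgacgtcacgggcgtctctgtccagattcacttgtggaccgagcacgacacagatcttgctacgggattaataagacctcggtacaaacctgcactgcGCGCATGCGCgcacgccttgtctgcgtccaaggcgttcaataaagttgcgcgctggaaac
Atp5k: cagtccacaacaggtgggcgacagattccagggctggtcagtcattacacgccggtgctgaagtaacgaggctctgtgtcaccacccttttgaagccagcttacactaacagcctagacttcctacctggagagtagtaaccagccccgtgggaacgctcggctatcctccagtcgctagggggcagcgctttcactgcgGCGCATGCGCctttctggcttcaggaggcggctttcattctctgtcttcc
The window of Ndufa13 held none of the 5 motifs. Nrf1 itself, among 10 tested transcriptional regulators of mitochondrial genes (a list that also holds Pprc1), fell, with -0.49 ± 0.13 after H2O2 and -0.39 ± 0.13 after etoposide (edgeR, adjusted p = 0.00896 and 0.0387), and so did Pprc1, with -0.48 ± 0.15 and -0.44 ± 0.15 (adjusted p = 0.0257 and 0.0429). No regulator of the list rose.

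The largest changes were in the isoforms linked to low oxygen. Ndufa4l2 (ENSMUSG00000040280, chr10:127514967-127517154), a hypoxia-inducible paralogue of Ndufa4, had 1.32, 3.26 and 10.7 CPM after H2O2 and 2.89, 7.88 and 7.22 CPM after etoposide, against 29.6, 26.0 and 36.3 CPM in uninduced cells. The highest induced library was far below the lowest uninduced one, and H2O2 library 3 was well above the other two of its group. It fell in both comparisons, with log2 fold changes of -2.62 ± 0.84 after H2O2 (edgeR, adjusted p = 0.0278) and -2.34 ± 0.83 after etoposide (adjusted p = 0.0465). The call was lost without H2O2 library 1 or 2 or uninduced library 3 in the first comparison (adjusted p = 0.067 to 0.123) and without any 1 of the 6 libraries in the second (edgeR, adjusted p = 0.074 to 0.157). Over these fits the log2 fold change lay between -3.75 and -2.15 after H2O2 and between -2.58 and -2.02 after etoposide. Shmt2 overlaps the gene on the opposite strand.

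Cox4i2 (ENSMUSG00000009876, chr2:152754173-152765037), the second isoform of complex IV subunit 4, had 0.278, 0.806 and 1.41 CPM after H2O2 and 0.503, 0.498 and 1.04 CPM after etoposide, against 5.58, 3.24 and 3.13 CPM in uninduced cells. Again no induced library reached an uninduced one. The fall was -2.29 ± 0.65 on the log2 scale after H2O2 (edgeR, adjusted p = 0.011) and -2.53 ± 0.65 after etoposide (adjusted p = 0.00549). The H2O2 call was lost without H2O2 library 1 (-1.86, adjusted p = 0.073) or uninduced library 1 (edgeR, -1.97, adjusted p = 0.0524).

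These 2 were also the only members whose groups did not overlap over all treatments. Ndufa4l2 lay between 1.32 and 14.6 CPM (median 4.58) in the 30 induced libraries and between 17.8 and 36.5 CPM (median 29.6) in the 15 uninduced ones. For Cox4i2 the range was 0.196 to 1.52 CPM (median 0.509) in induced and 1.904 to 5.84 CPM (median 3.24) in uninduced libraries. Thus 2 of 98 members (2.04%) lay below without overlap, compared with 3.67% of all genes, and 0 lay above, compared with 2.16%.

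Some markers of other cell types were also lower in the induced cells, and their part in the fall of Cox4i2 and Ndufa4l2 was not tested. Over the 15 libraries of each state, the summed level of 9 muscle markers was 51.2 to 112 CPM after H2O2 and 46.9 to 131 CPM after etoposide, against 123 to 212 CPM in uninduced libraries, with Des, Acta1 and Tnnt2 called lower after H2O2 and Des after etoposide. Of the muscle markers, Myod1, Myog and Ckm averaged under 0.05 CPM. The sum of 5 endothelial markers was 0.521 to 2.99 CPM and 0.351 to 2.03 CPM, against 1.73 to 2.97 CPM. Each of the 5 averaged under 1 CPM, and Emcn, at 0.413 CPM, was called lower in both comparisons (-2.32 ± 0.60 and -2.48 ± 0.61) and Kdr after etoposide (-1.65 ± 0.58). The sum of 5 epithelial markers, most of it Krt19, was 2.29 to 7.98 CPM and 2.42 to 8.55 CPM, against 20.5 to 38.2 CPM. Krt19 was called lower in both comparisons (-3.28 ± 0.37 and -2.74 ± 0.36), and Krt18, at 0.437 CPM on average, after H2O2 (-1.57 ± 0.54). The sum of 5 adipocyte markers was 1.56 to 10.5 CPM and 1.08 to 9.98 CPM, against 5.2 to 17.8 CPM, and of these, the 5 macrophage and the 5 neural markers none that was tested was called. Of the 8 fibroblast markers, with a sum of 14300 to 17500 CPM and 11600 to 16800 CPM against 14800 to 21600 CPM, Col1a1 (-0.77 ± 0.25) and Col1a2 (-0.58 ± 0.20) were called lower after etoposide. The other isoforms were not called: Cox6b2 was at 0.38 ± 0.50 and 0.54 ± 0.50, Cox6a2 at -0.42 ± 0.66 and -0.30 ± 0.66, and Cox7a1 at -0.42 ± 0.58 and -1.03 ± 0.62, the last 2 genes at levels under 1 CPM.

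**Figure D4:**
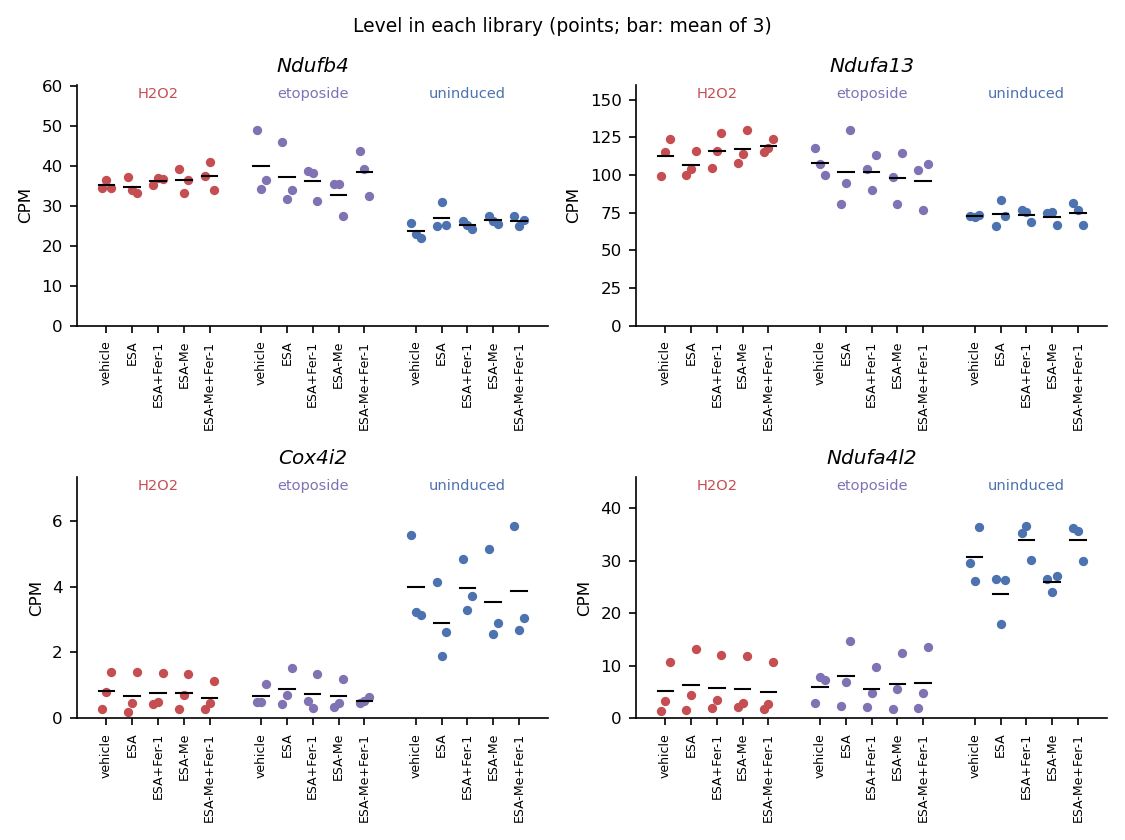
Level in CPM of Ndufb4, Ndufa13, Cox4i2 and Ndufa4l2 in each of the 45 libraries (points) with the mean of each group of 3 (bar), by state and treatment. Ndufa4l2 is at most 14.6 CPM in induced cells and at least 17.8 CPM in uninduced cells, under every treatment.

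No mitochondrial member was called in either comparison. For mt-Co1 the libraries had 4672, 5622 and 5005 CPM after H2O2 and 3408, 4916 and 5267 CPM after etoposide, against 5021, 4713 and 4673 CPM in uninduced cells, and the groups overlapped. Its log2 fold changes were 0.09 ± 0.20 and -0.08 ± 0.20, those of mt-Nd1 0.11 ± 0.30 and -0.19 ± 0.30, of mt-Cytb 0.19 ± 0.24 and 0.04 ± 0.24, and of mt-Atp6 0.24 ± 0.36 and -0.27 ± 0.36. The lowest value in each comparison was that of mt-Nd6, which had 2.78, 2.05 and 3.995 CPM after H2O2 and 1.63, 3.11 and 1.70 CPM after etoposide, against 5.20, 5.06 and 4.50 CPM in uninduced cells. All induced libraries were below the uninduced ones, yet the log2 fold changes of -0.75 ± 0.49 and -1.18 ± 0.50 missed the threshold (edgeR, adjusted p = 0.326 and 0.0996). At an unadjusted p under 0.05 there were 0 mitochondrial members after H2O2 and 1 after etoposide. The 95% interval lay within 1.5-fold of no change for 2 of 13 after H2O2 and 3 of 13 after etoposide, so that moderate changes of most mitochondrial members could not be told from none. Between H2O2 and etoposide vehicle cells 0 of 98 members and 0% of all genes were called (edgeR without or with the replicate block, 2 and 6 members at an unadjusted p under 0.05, and 0 by DESeq2), and without the block 75 members had an interval within 1.5-fold.

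Genes that serve the chain from outside it were read from lists, to be set beside the shares of all genes tested, 8.92% higher and 8.58% lower after H2O2 and 9.2% and 8.54% after etoposide. Of 44 tested assembly factors, which help to build the complexes, 10 rose after H2O2 and 12 after etoposide, and none fell, with medians of 0.18 and 0.17. Surf1, an assembly factor of complex IV, rose by 0.79 ± 0.10 and 0.81 ± 0.10 (edgeR, adjusted p = 5.89e-07 and 5.57e-07), Lyrm7 of complex III by 0.72 ± 0.22 and 0.93 ± 0.22, Pet100 of complex IV by 0.56 ± 0.12 and 0.63 ± 0.12 and Sdhaf4 of complex II by 0.58 ± 0.18 in each. Of 77 tested mitochondrial ribosomal protein genes 1 and 3 rose and none fell, with medians of 0.01 and 0.08. Of 89 tested cytosolic ribosomal protein genes none rose, and 17 fell after H2O2 and 9 after etoposide, with medians of -0.36 and -0.23. Of 29 genes of mitochondrial DNA and RNA upkeep 1 rose and 3 fell after H2O2, and 0 and 2 after etoposide; the DNA polymerase gene Polg fell (-0.56 ± 0.13 and -0.49 ± 0.13). The citrate cycle list of 19 had 1 called gene in each comparison, Idh2, which fell (-1.34 ± 0.17 and -1.26 ± 0.17). Among 22 genes of electron carriers and ubiquinone synthesis, 3 rose (Sqor by 1.09 ± 0.18 and 1.07 ± 0.18, Coq10a and Coq9) and Pdss1 fell (-1.19 ± 0.22 and -1.24 ± 0.22). Of 9 tested genes of ATP export and coupling only the carrier Slc25a5 was called, and it was lower (-0.49 ± 0.16 and -0.48 ± 0.16), and neither of the 2 mitochondrial ribosomal RNAs was called.

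The next question was what the compounds did within each state in 12 h. Without the block, 0 of 98 members were called in any of the 6 comparisons of ESA or ESA-Me with vehicle (edgeR, with 0 to 7 members at an unadjusted p under 0.05, and 0 by DESeq2), where 0.142% of all genes were called with ESA in uninduced cells and 0% in the other 5. With the block, ESA in uninduced cells called 3 of 98 members, 2 higher and 1 lower, compared with 19.8% of all genes, 9.19% higher and 10.6% lower. For 81 members (82.7%) the 95% interval of the ESA effect lay within 1.5-fold of no change, against 54% of all genes, and the median log2 fold change of the nuclear members was 0.02. In the other comparisons with the block the counts were 0 of 98 with ESA-Me in uninduced cells (1.64% of all genes called), with ESA and ESA-Me in H2O2 cells (1.48% and 0.908%) and with ESA and ESA-Me in etoposide cells (0.611% and 0.284%). Members at an unadjusted p under 0.05 in those 5 numbered 1, 0, 6, 14 and 21.

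Atp5k, subunit e of ATP synthase, had 49.4, 51.3 and 50.6 CPM in uninduced cells with ESA, against 45.2, 44.3 and 42.4 CPM with vehicle. The groups did not overlap. With the block it rose by 0.20 ± 0.07 (edgeR, adjusted p = 0.041). Ndufa10, an accessory complex I subunit, had 84.7, 114.9 and 86.9 CPM with ESA, against 78.2, 81.8 and 80.5 CPM with vehicle, and rose by 0.24 ± 0.08 (adjusted p = 0.0377). Library 2, which also stood apart in the summed levels, was far above the others. Cox4i2 had 4.13, 1.904 and 2.63 CPM with ESA, against 5.58, 3.24 and 3.13 CPM with vehicle, lower within each pair, and fell, with -0.48 ± 0.17 (edgeR with the block, adjusted p = 0.0453). All 3 calls were close to the threshold. When each of the 6 libraries was left out in turn, Atp5k stayed called in 1 case, Ndufa10 in 2 and Cox4i2 in 0, with adjusted p up to 0.202, 0.331 and 0.22 (edgeR with the block), the highest without ESA library 3 for Atp5k and without ESA library 2 for the others. Without ESA library 1 the block called 8 members.

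**Figure D5:**
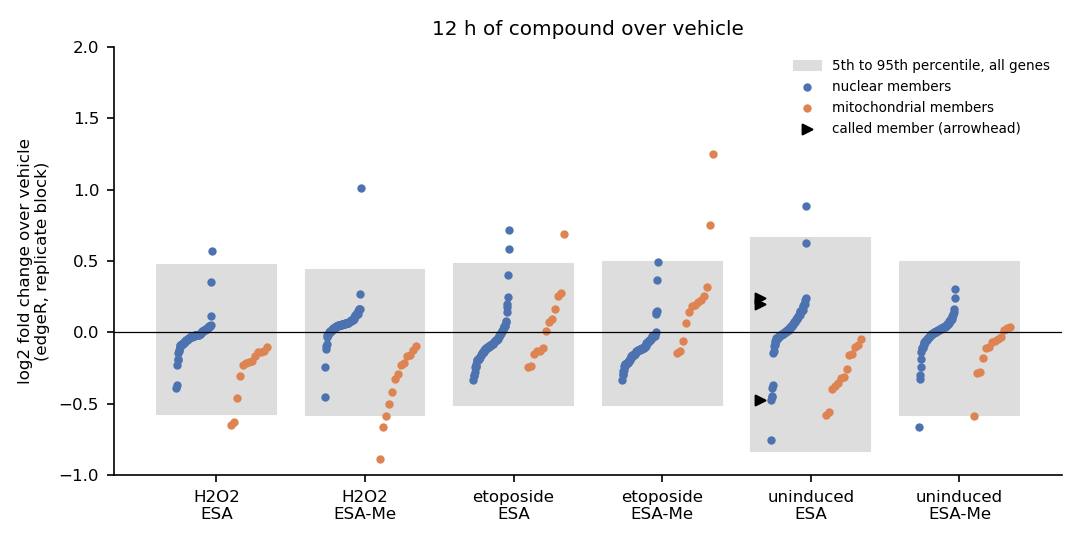
Log2 fold change over vehicle of each tested member after 12 h of ESA or ESA-Me in each state (edgeR with the replicate block), with nuclear members in blue and mitochondrial members in orange. Grey boxes span the 5th to 95th percentile of all genes, -0.83 to 0.66 for ESA in uninduced cells, and arrowheads mark the 3 called members, at 0.24, 0.20 and -0.48.

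None of the 13 mitochondrial members was called with either compound in any state. With ESA and with ESA-Me in H2O2 cells the log2 fold change was below 0 for all 13, with medians of -0.21 and -0.30, and 5 of them lay below every vehicle library, where 3.45% and 3.82% of all genes did. The 13 genes were read in the same 3 libraries of each group, and both comparisons use the same vehicle libraries. They are therefore not 13 separate observations. For ESA in uninduced cells the log2 fold change was below 0 for all 13 as well, with a median of -0.32, but the 3 pairs differed. The mitochondrial sum was 14670, 9504 and 12390 CPM in ESA libraries 1 to 3, against 13810, 12420 and 12820 CPM with vehicle, so that it was higher with ESA in pair 1 and far lower in pair 2, whose ESA library stood apart. In etoposide cells the medians were 0.01 with ESA and 0.19 with ESA-Me. For mt-Nd1 the H2O2 libraries had 1487, 1616 and 1748 CPM with ESA and 1652, 1469 and 1459 CPM with ESA-Me, against 1767, 1959 and 1910 CPM with vehicle. Each treated library was below each vehicle library. The etoposide libraries had 1258, 2294 and 1020 CPM with ESA and 1874, 2817 and 1020 CPM with ESA-Me, against 1025, 1592 and 1973 CPM with vehicle, which overlapped throughout. Replicate number within state accounted for a median 39.1% of the variance of the mitochondrial members' log2 CPM. Treatment within state accounted for 16.1% and cell state for 1.15%, and the median rest was 40.9%. For the nuclear members the shares of number, treatment and state were 34.7%, 8.63% and 24.1%, and for all genes 31.9%, 13.4% and 19.7%. The shares are not corrected for the number of groups, which is larger for treatment within state than for state. They therefore do not rank treatment against state.

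The third question was whether Fer-1 changed the members beside a compound. Without the block 0 of 98 members were called in the 6 comparisons (edgeR, with 0 or 1 members at an unadjusted p under 0.05, and 0 by DESeq2), where 0.179% of all genes were called for ESA in uninduced cells, 0.0185% for ESA in H2O2 cells, 0.00618% for ESA-Me in etoposide cells and 0% in the others. With the block 3 members were called for ESA with Fer-1 against ESA alone in uninduced cells, all higher, compared with 20.1% of all genes, 10.4% higher and 9.65% lower. They were Cox6b2, Ndufa4l2 and Cox4i2. This comparison and that of ESA with vehicle share the 3 ESA libraries, among them library 2, which stood apart in the summed levels. Opposite changes in the 2 comparisons, of members or of markers, are therefore not independent of each other. Ndufa4l2 had 35.3, 36.5 and 30.1 CPM with ESA and Fer-1, against 26.6, 17.8 and 26.3 CPM with ESA alone, without overlap. It rose by 0.54 ± 0.17 (edgeR with the block, adjusted p = 0.0242). Cox4i2 had 4.85, 3.29 and 3.71 CPM, against 4.13, 1.904 and 2.63 CPM with ESA alone, higher within each pair, and rose by 0.49 ± 0.18 (adjusted p = 0.0467). Cox6b2 had 4.42, 2.19 and 3.55 CPM, against 1.502, 1.83 and 2.63 CPM with ESA alone, and rose by 0.76 ± 0.20 (edgeR with the block, adjusted p = 0.00717). Ndufa4l2 stayed called in 3 of the 6 fits that left out 1 library, Cox4i2 in 1 and Cox6b2 in 4, and the highest adjusted p were 0.226 and 0.215 without ESA library 2 and 0.143 without ESA with Fer-1 library 1. Cell type markers moved in the same comparisons of uninduced cells. The sum of 5 macrophage markers was 46.4 to 120 CPM with ESA and Fer-1, 129 to 160 CPM with ESA and 47.7 to 123 CPM with vehicle. That of 8 fibroblast markers was 17600 to 21500 CPM with ESA and Fer-1, 14800 to 17900 CPM with ESA and 18100 to 21300 CPM with vehicle. With the block, Lyz2 (0.98 ± 0.20) and Cd68 (0.82 ± 0.23) were called higher with ESA against vehicle, and Pdgfrb (-0.56 ± 0.14), Col1a1 (-0.39 ± 0.13) and Col1a2 (-0.37 ± 0.11) lower. For ESA with Fer-1 against ESA alone, Lyz2 (-0.86 ± 0.20), Adgre1 (-0.82 ± 0.20) and Cd68 (-0.76 ± 0.24) were called lower, and Pdgfrb (0.50 ± 0.14) and Col1a2 (0.32 ± 0.11) higher. Among the other marker lists, Fabp4, Map2, Tek and Acta1 were called lower with ESA, and Fabp4 and Map2 higher with Fer-1 added. The part of these markers in the members' values was not tested.

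With ESA-Me and Fer-1 against ESA-Me alone in H2O2 cells, Cox6a2 was called lower with the block, 1 of 98 members beside 2.12% of all genes. Its libraries had 0.237, 0 and 0.118 CPM, against 1.18, 0.186 and 0.546 CPM with ESA-Me alone. All of these are around or under 1 CPM, and the log2 fold change of -2.27 ± 0.51 (edgeR with the block, adjusted p = 0.0101) stayed called in 3 of the 6 fits that left out 1 library. The remaining 4 comparisons called 0 of 98 members with the block, where 3.68% (ESA-Me, uninduced), 4.18% (ESA, H2O2), 2.37% (ESA, etoposide) and 4.45% (ESA-Me, etoposide) of all genes were called. In these, 4, 2, 7 and 3 members had an unadjusted p under 0.05.

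Whether a compound acted differently in induced and uninduced cells was tested as an interaction. Without the block 0 of 98 members were called in the 4 tests and 0% of all genes (edgeR, with 0 to 4 members at an unadjusted p under 0.05, and 0 by DESeq2). With the block 1 was called, Atp5k for ESA in etoposide against uninduced cells, where 0.741% of all genes were called. The other 3 interactions called 0 of 98 members with the block (0.259% of all genes for ESA in H2O2 cells and 0% for ESA-Me in either), with 3, 4 and 8 members at an unadjusted p under 0.05. Atp5k had 51.8, 45.1 and 50.6 CPM in etoposide cells with ESA, against 67.6, 57.0 and 51.5 CPM with vehicle, lower within each pair. The difference between the ESA effects of the states was -0.45 ± 0.10 on the log2 scale (edgeR with the block, adjusted p = 0.0236), made up of -0.25 ± 0.07 in etoposide cells (adjusted p = 0.118) and 0.20 ± 0.07 in uninduced cells. It stayed called in 5 of the 12 fits that left out 1 library, with values of -0.55 to -0.39, and was farthest from the threshold without etoposide ESA library 2 (edgeR with the block, adjusted p = 0.118). Without etoposide vehicle library 2 the block called 6 members in this test.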

How the data were processed

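RNA of 45 cultures was extracted with Trizol and made into TruSeq Stranded Total RNA libraries, per the labels' protocols. The authors deposited raw counts per gene (GRCm38). The submitters' processing notes name FastQC, HISAT2 2.1.0, featureCounts and edgeR; their order, the strand setting and the treatment of reads with several places are not given in the sources used here. Members and lists were chosen with earlier results of these data known. The 3 libraries of a group are described as biological replicates, and no pair of libraries of a group agreed within sampling noise (chi-square per gene 12 to 139 over 45 pairs).

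Counts were tested with edgeR 4.0.16 (R 4.3.3): 1 coefficient for each of 15 groups, filterByExpr (16194 genes, 99.95% of counts), TMM scaling and Benjamini-Hochberg adjustment over all genes tested, with 0.05 as the threshold. The fit was also run on simulated counts. For the fit without the block these had less spread than the data (common dispersion 0.0722) and no effect shared by libraries of 1 number. That run therefore does not show how often calls are wrong here. Alternatives were a block of replicate number (nested in state over all libraries for comparisons within a state, and fitted to the compared groups alone between states), DESeq2 1.42.0, relative log expression scaling, no filter, the compared groups alone and each library left out. Adding the counts of nuclear copies to the mitochondrial members, and leaving out libraries in the blocked fit, were chosen after seeing the data. Replicate numbers within a state were taken as paired from the correlations given above, and so were those of H2O2 and etoposide vehicle cells (0.62 to 0.76), while H2O2 or etoposide against uninduced cells gave -0.22 to 0.05. No source states what a number shares.

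CPM per kb divides CPM by the union of a gene's exons in GENCODE M21. Nuclear copies were found with BLAST 2.17.0+ at 98% identity or more. Named were a fixed set of subunits of the complexes, tissue isoforms and members under 1 CPM on average. Among called members, up to 6 in each direction by log2 fold change were named for senescence or a compound, and up to 3 otherwise. The promoters shown were chosen after values were seen, and the list of cytosolic ribosomal proteins was then limited, by symbol, to leave out kinases and binding proteins. Figures were drawn with matplotlib 3.10.9.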

Additional observations from a re-analysis of the deposited data

Results flagged for a closer look

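The effect of ESA on Atp5k, subunit e of ATP synthase, differed between etoposide-induced and uninduced cells by a test of the difference itself. With the replicate block, the etoposide effect minus the uninduced one was -0.45 on the log2 scale (edgeR, adjusted p = 0.0236). Atp5k was lower with ESA in 3 of 3 etoposide pairs and higher in 3 of 3 uninduced pairs. Without the block the difference was not called. With the block it stayed called in 5 of the 12 fits that left out 1 library (edgeR, adjusted p up to 0.118). Atp5k was 1 of 98 members called in this test, beside 0.741% of all genes. The ESA effect in etoposide cells was not called on its own.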

How the results depend on the processing

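After etoposide against uninduced cells, 21 members were called in the fit as reported, 11 with no filter on low counts and 7 in a fit to the compared groups alone. After H2O2 these counts were 11, 5 and 24. Between states the replicate block was also fitted to the compared groups alone, so its counts stand beside those of that fit without a block: 1 with it and 7 without after etoposide, and 6 and 24 after H2O2. The 1 called with the block after etoposide was Ndufa4l2. The 6 after H2O2 were Ndufa11, Ndufa13, Ndufa4l2, Ndufa7, Ndufb4 and Atp5l. Atp5l, higher by 0.44 ± 0.09 (edgeR with the block, adjusted p = 0.0496), was not called after H2O2 in the fit as reported. Replicate numbers do not pair these groups, so a call lost under the block is not a weaker effect. Leaving out each library gave 4 to 9 members called after H2O2 and 8 to 22 after etoposide. In the other comparisons it gave 0 to 0 without the block. With the block 3 members were called for ESA against vehicle and 3 for ESA with Fer-1 against ESA in uninduced cells, 1 for ESA-Me with Fer-1 against ESA-Me in H2O2 cells and 1 for the difference of ESA effects between etoposide and uninduced cells, against 0 without it in each. The block changed no other count. DESeq2, relative log expression scaling and adding the counts of nuclear copies kept every count of members within 1.5 times and turned no direction. For single named members, leaving out 1 library ended 45 calls and kept the side of the threshold in 111 cases. The 111 include members that were not called in the fit as reported and stayed uncalled, so they are not a count of calls kept. Causes of these differences were not tested. Members under 1 CPM, mt-Nd6 and mt-Atp8 rest on few counts, and changes of less than 1.5-fold in most mitochondrial members could not be resolved.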

Other observations

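Genes that serve the chain from outside it were also counted within uninduced cells, in the test with the replicate block. Among 77 mitochondrial ribosomal protein genes, which build the ribosome that translates the mitochondrial members, 18 were called higher and 0 lower with ESA against vehicle (median log2 fold change 0.14), beside 9.19% of all genes higher and 10.6% lower. For ESA with Fer-1 against ESA alone the counts were 0 higher and 15 lower (median -0.13), beside 10.4% and 9.65%. Of 44 assembly factors, 4 were higher and 0 lower with ESA, and 1 higher and 3 lower with Fer-1 added. Of 29 genes of mitochondrial DNA and RNA upkeep, 5 were higher and 0 lower with ESA, and 0 higher and 6 lower with Fer-1 added. These comparisons share the 3 ESA libraries, among them library 2, which stood apart in the summed levels of the members. In the same test the macrophage markers Lyz2 and Cd68 were called higher with ESA (0.98 ± 0.20 and 0.82 ± 0.23) and lower with Fer-1 added (-0.86 ± 0.20 and -0.76 ± 0.24), and the fibroblast marker Pdgfrb was called lower with ESA (-0.56 ± 0.14) and higher with Fer-1 added (0.50 ± 0.14). The part of these markers and of library 2 in the counts was not tested.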
